A study of Homo sapiens with 6 samples.

Results

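The 3 GADD45 genes, the 3 sestrin genes, *MDM2*, *PPM1D*, *TP53I3* and *TP53INP1* were followed in HSC-4, an established human cell line from an oral squamous carcinoma, after treatment with DAPT. They were chosen by symbol as well-known stress and p53 response genes, and they make up 10 of the 58884 genes in the count tables. DAPT blocks γ-secretase, a membrane protease whose cut of Notch sets free the part of the receptor that enters the nucleus. The DAPT group consisted of 3 libraries from cells given 50 µM DAPT for 24 h, and the control group of 3 libraries from the same line without DAPT. The study describes the controls as vehicle-treated with DMSO, while the count tables mark them with the letters GM, and its design text speaks of normal growth medium. If the controls received no DMSO, vehicle and DAPT cannot be told apart. All 6 libraries come from 1 cell line in bulk culture, so fewer cells expressing a gene and less RNA per cell cannot be told apart either. Nothing in the labels says that the libraries of a group came from separate cultures, and p-values then measure only the spread between these libraries.

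The tumour suppressor p53 is a transcription factor that is stabilised by DNA damage and other stresses. Its targets include cell cycle inhibitors, *GADD45A*, sestrins 1 and 2, and its own inhibitors. A p53 response thus usually raises *MDM2* and *CDKN1A* together with many other genes. Several of the same genes also respond without p53, such as *SESN2* and *GADD45A* to the transcription factor ATF4 in the integrated stress response, *GADD45B* to NF-κB and TGF-β signaling, and *SESN1* and *SESN3* to FOXO factors.

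Total counts lay between 12276313 and 16317672 per library, so that 3 reads, taken as the smallest signal, correspond to 0.184 to 0.244 CPM (counts scaled to a common library size). All 7 squamous epithelial markers examined passed the low-count filter, and their summed level was 5027 to 5125 CPM in the controls and 3175 to 3385 CPM with DAPT. Of these 7 markers 5 fell, among them *KRT5* from 2701 to 1315 CPM and *KRT6A* from 523 to 187 CPM, and 2 rose, *EPCAM* and *CDH1*, by a log2 fold change of 0.27 each. The control library of replicate 1 stood apart from the other 5. It held 329 reads of the fibroblast gene *DCN*, against at most 2 in any other library, 102 reads of *PDGFRB* against at most 6, and 3452 reads of *COL1A2* against at most 28. The summed level of the 5 fibroblast markers was 522 CPM there, 57.2 and 58.1 CPM in the other controls, and 50.0 to 54.9 CPM with DAPT. Outside control replicate 1 most of this sum was *COL1A1*. Without *COL1A1* the sum was 248 CPM in control replicate 1, 3.15 and 4.26 CPM in the other controls, and 1.62 to 2.92 CPM with DAPT. No marker of the 5 was at 0 in all 6 libraries, and 3 of the 5 passed the low-count filter. The endothelial markers summed to 1.24 to 1.81 CPM in the controls and 2.41 to 2.99 CPM with DAPT, and the immune markers to 10.5 to 12.8 CPM and 8.92 to 10.4 CPM, with the T cell marker *CD3E* at 0 in all libraries. The part of these other cell types in the results was not tested. Results that leaving out this library changed in call, or by over 1.5 times in size, are therefore also given without it. The Notch target genes *HES1*, *HES4*, *HEY1* and *NRARP* fell with DAPT, by 0.77, 1.48, 1.98 and 1.43 on the log2 scale.

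All 10 genes passed the filter on low counts. With DAPT, *SESN2*, *GADD45A*, *TP53I3* and *MDM2* rose, and *SESN3* and *SESN1* fell, called with the quasi-likelihood test of edgeR where the adjusted p was below 0.05. For *GADD45B*, *GADD45G*, *PPM1D* and *TP53INP1* the test did not pass. Thus 6 of 10 genes were called, beside 35.2% of the 15001 tested genes, 4 of them higher (background 17.2%) and 2 lower (background 18.0%). The median log2 fold change was 0.28 over the 10 genes and 0.01 over all tested genes. In 5 of the 10 genes the 3 DAPT libraries lay entirely on one side of the controls, beside 46.3% of all tested genes. Scaling by library size alone moved the share of higher genes among all calls from 48.7% to 61.5%, and the median of all genes to 0.06. Without control replicate 1, 5 genes were called higher and 1 lower.

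**Figure D1:**
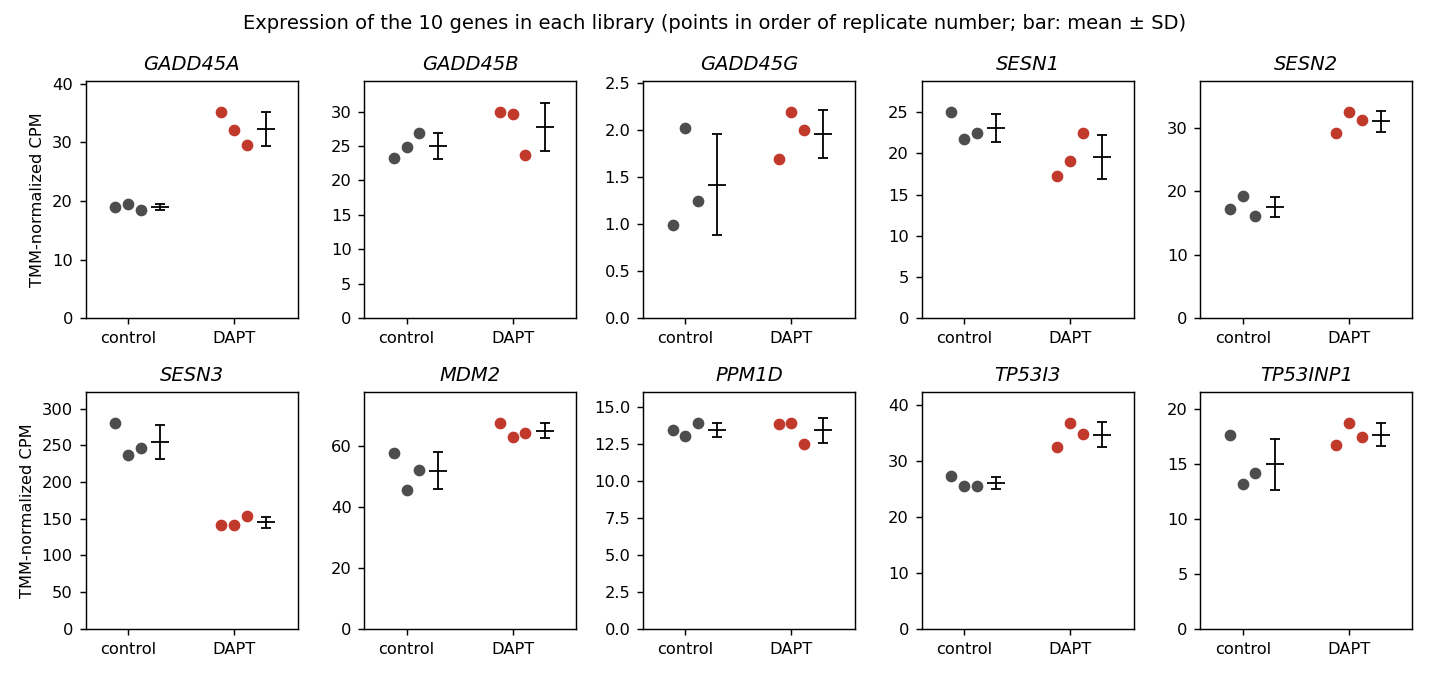
Expression of each of the 10 genes as TMM-normalized CPM (vertical axes, each starting at 0) in the 3 control (grey) and 3 DAPT (red) libraries, with the mean ± SD beside the points. The DAPT points of *GADD45A*, *SESN2*, *MDM2* and *TP53I3* sit above all control points, those of *SESN3* sit below, and the groups overlap in the other 5 genes.

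**Figure D2:**
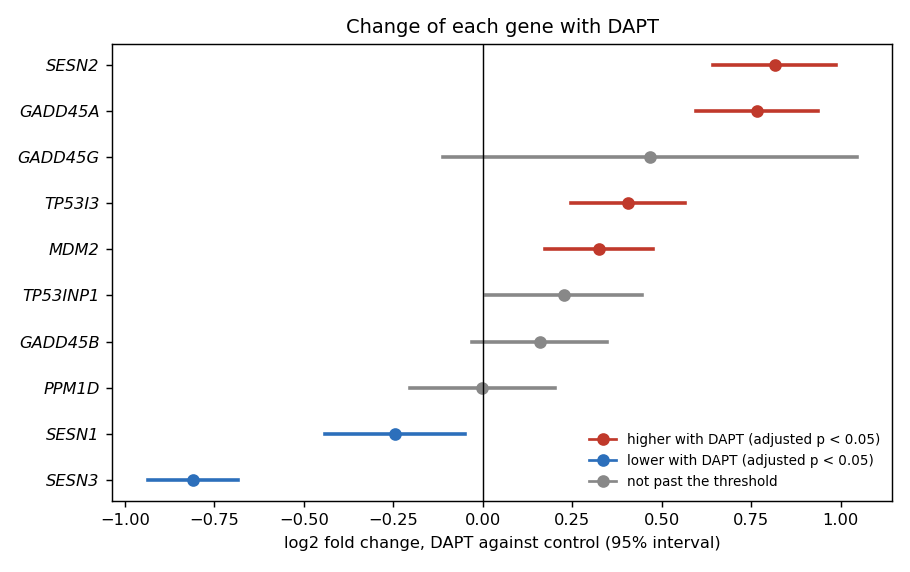
Log2 fold change of each gene with DAPT (points) and its 95% interval from the edgeR fit (lines), ordered by size. The points run from *SESN3* at -0.81 to *SESN2* at 0.82, and the intervals of *GADD45B*, *GADD45G* and *PPM1D* include 0.

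The sestrins are stress-induced proteins that restrain mTORC1, the kinase complex that couples growth to amino acid supply. They do so by binding the GATOR2 complex, and sestrin 2 serves as a sensor of leucine. Upstream bases of the most strongly changed pair, *SESN2* and *SESN3*, are shown here because these paralogs moved in opposite directions. The sequences come from the RefSeq promoter table (GRCh38.p14), 5′ to 3′ on the gene's strand, and end at the base before the first annotated exon. They cover chr1:28259268-28259517 on the plus strand for *SESN2* and chr11:95232542-95232725 on the minus strand for *SESN3*.
SESN2: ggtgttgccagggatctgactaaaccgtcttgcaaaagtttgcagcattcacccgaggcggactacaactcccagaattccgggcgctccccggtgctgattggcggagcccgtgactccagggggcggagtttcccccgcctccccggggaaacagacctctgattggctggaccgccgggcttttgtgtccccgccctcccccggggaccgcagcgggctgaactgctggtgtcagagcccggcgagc
SESN3: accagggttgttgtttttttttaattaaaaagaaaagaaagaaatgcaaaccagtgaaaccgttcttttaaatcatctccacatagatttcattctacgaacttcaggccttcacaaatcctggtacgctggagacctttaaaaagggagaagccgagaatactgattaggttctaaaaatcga
The *SESN2* stretch held 65.6% G and C and 19 CpG dinucleotides in 250 bases. The *SESN3* stretch held 35.9% G and C and 5 CpG dinucleotides in 184 bases. Over all 35116 promoter windows of the table, the median of the 250 bases before the start was 58.0% G and C. For *SESN3* the start in that table lies inside the annotated gene. Its stretch therefore leaves out the bases nearest that start, and covers a region unlike that of *SESN2* and of the median.

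*SESN2* (ENSG00000130766, chr1:28259518-28282491) was measured at 17.3, 19.2 and 16.2 CPM in the control libraries of replicates 1, 2 and 3. With DAPT it was at 29.2, 32.5 and 31.3 CPM. Every DAPT library lay above every control, and the distance between the groups was larger than the spread within either. This was a 1.76-fold rise, or 0.82 on the log2 scale with a standard error of 0.08 (adjusted p = 1.08e-07, quasi-likelihood test of edgeR, Benjamini-Hochberg adjusted over all tested genes). This change was larger in size than that of 95.8% of the tested genes. No exon of another gene overlapped those of *SESN2* in the annotation used for counting.

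*SESN3* (ENSG00000149212, chr11:95165513-95232541), a sestrin known to be induced by FOXO factors, went the opposite way. Its level was 281, 237 and 247 CPM in the controls. In the DAPT libraries it was 141, 141 and 154 CPM. The groups were far apart and did not overlap, with control replicate 1 the highest. On the log2 scale the change was -0.81, with a standard error of 0.06 (adjusted p = 2.44e-09, edgeR), which leaves 0.570 of the control level, and it was -0.73 without control replicate 1 (adjusted p = 8.12e-12, edgeR). By p-value *SESN3* ranked 103 among the 15001 tested genes, the foremost of the 10.

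*SESN1* (ENSG00000080546, chr6:108986437-109094819), the sestrin classically linked to p53, was at 25.0, 21.8 and 22.4 CPM in the controls and at 17.2, 19.1 and 22.5 CPM with DAPT. DAPT replicate 3 lay within the control range, so the groups overlapped. Its log2 fold change of -0.25 (standard error 0.09) had an adjusted p of 0.0473 from edgeR that sits just inside the threshold. Without control replicate 1 the log2 fold change was -0.18 (adjusted p = 0.171, edgeR), without DAPT replicate 1 it was -0.16 (adjusted p = 0.245, edgeR), and with DESeq2 it was again -0.25, with an adjusted p of 0.120. Exons of an opposite-strand gene cover 7.09% of its exonic bases. Whether *SESN1* passed the threshold depended on the libraries and the test used, while the estimate was below 0 in every alternative run.

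Because the 3 sestrins code for related proteins, their levels were compared per kilobase of exon, the scale on which levels of different genes are set side by side in the text. The summed sestrin level was 36.4, 32.2 and 32.4 CPM per kb in the controls and 25.2, 26.4 and 28.0 CPM per kb with DAPT. The share of *SESN3* in this sum was 72.9%, 69.5% and 72.1% in the controls and 53.2%, 50.4% and 52.0% with DAPT. *SESN2* made up 13.7%, 17.2% and 14.4% in the controls and 33.5%, 35.5% and 32.3% with DAPT. The shift towards *SESN2* was present in every DAPT library, while the share of *SESN1* stayed between 13.2% and 15.7% in all 6 libraries. The log2 ratio of *SESN2* to *SESN1* was 0.17 ± 0.19 in the controls (SD, n = 3) and 1.23 ± 0.17 with DAPT (SD, n = 3). Its difference of 1.07 gave p = 0.1 in a two-sided exact permutation test, the smallest p that 3 against 3 libraries allow.

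**Figure D3:**
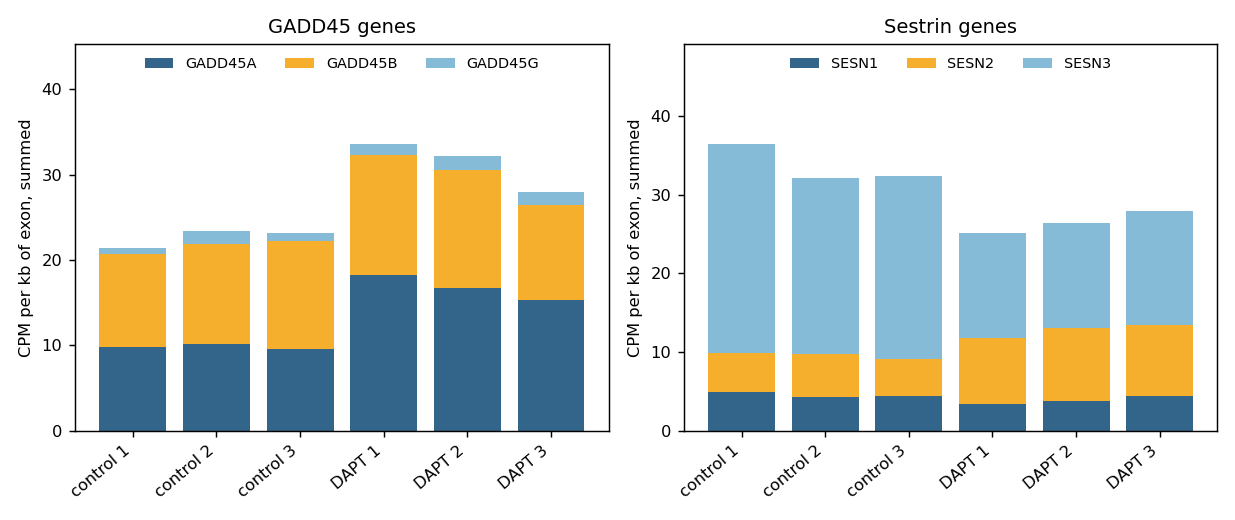
Stacked bars of the length-scaled level (CPM per kb of exon, vertical axes from 0) of the 3 GADD45 genes (left) and the 3 sestrin genes (right) in each library. The GADD45 sum rises from 21.5 to 23.3 in the controls to 27.9 to 33.6 with DAPT, and in the sestrin bars the *SESN3* segment shrinks while the *SESN2* segment grows.

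The GADD45 genes encode small acidic nuclear proteins that bind PCNA, the CDK1 and cyclin B1 kinase complex and the kinase MAP3K4, and link stress to growth arrest and to p38 and JNK signaling. *GADD45A* (ENSG00000116717, chr1:67685201-67688334), the member most often described as a p53 target, stood at 18.9, 19.6 and 18.5 CPM in the controls. With DAPT its level was 35.2, 32.1 and 29.5 CPM. The controls were tightly grouped and all DAPT libraries were far above them. This was a 1.70-fold rise, 0.77 ± 0.08 on the log2 scale (standard error; adjusted p = 2.23e-07, edgeR), and the alternatives for processing and left-out libraries gave 0.70 to 0.86.

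*GADD45B* (ENSG00000099860, chr19:2476122-2478259), known as a target of NF-κB and TGF-β signaling, was at 23.2, 24.9 and 26.9 CPM in the controls and at 29.9, 29.7 and 23.7 CPM with DAPT. DAPT replicates 1 and 2 lay above the controls, and DAPT replicate 3 lay among them. Its log2 fold change was 0.16, with a 95% interval from -0.03 to 0.35 (adjusted p = 0.183, edgeR). Without DAPT replicate 3 it was 0.26 (adjusted p = 0.0299, edgeR), and with an offset for GC content and length also 0.26 (adjusted p = 0.0122, edgeR).

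*GADD45G* (ENSG00000130222, chr9:89605012-89606555) was the least expressed of the 10 genes. Its counts were 16, 28 and 15 reads in the controls and 26, 30 and 26 reads with DAPT, and the groups overlapped. At this depth the 95% interval of its log2 fold change ran from -0.11 to 1.05, so neither no change nor a doubling could be told from the estimate of 0.47 (adjusted p = 0.204, edgeR). Single libraries moved this estimate widely, to 0.24 without control replicate 1 (adjusted p = 0.565, edgeR) and to 0.81 without control replicate 2 (adjusted p = 0.0568, edgeR).

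Of the summed GADD45 level per kilobase, *GADD45A* made up 45.8%, 43.5% and 41.5% in the controls and 54.5%, 51.8% and 54.9% with DAPT. *GADD45A* was thus below *GADD45B* in every control library and above it in every DAPT library. The log2 ratio of *GADD45A* to *GADD45B* went from -0.24 ± 0.13 in the controls (SD, n = 3) to 0.37 ± 0.10 with DAPT (SD, n = 3), with a difference of 0.62 and p = 0.1 in a two-sided exact permutation test, again the smallest p possible.

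*MDM2* and *PPM1D* act as brakes on p53 and are known targets of it. *MDM2* (ENSG00000135679, chr12:68808177-68850686) encodes the ubiquitin ligase that marks p53 for degradation. Its level was 58.0, 45.8 and 52.2 CPM in the controls and 67.8, 63.2 and 64.5 CPM with DAPT. The groups did not overlap, but the controls were spread widely, and control replicate 1, the library with fibroblast reads, was the highest of them. The part of the fibroblast reads in this was not tested. The rise was 1.25-fold, 0.32 ± 0.07 on the log2 scale (standard error; adjusted p = 0.00158, edgeR), and without control replicate 1 it was 0.42 (adjusted p = 1.22e-05, edgeR). Exons of another gene on the same strand cover 3.31% of the exonic bases of *MDM2*, and reads there were not counted.

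*PPM1D* (ENSG00000170836, chr17:60600183-60666280), the phosphatase that switches off ATM, CHK2 and p53, was at 13.4, 13.0 and 13.9 CPM in the controls and at 13.8, 13.9 and 12.4 CPM with DAPT. These ranges overlap almost fully. The 95% interval of the log2 fold change ran from -0.20 to 0.20, around an estimate of 0.00 (adjusted p = 0.995, edgeR), and its sign changed between scalings. A change as large as that of *MDM2* thus lay outside the interval of *PPM1D*, although the difference between both genes was not tested.

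*TP53I3* and *TP53INP1* act further downstream of p53. *TP53I3* (ENSG00000115129, chr2:24077433-24085861), also known as PIG3, encodes a quinone oxidoreductase linked to reactive oxygen species. It stood at 27.3, 25.5 and 25.4 CPM in the controls and at 32.4, 36.8 and 34.8 CPM with DAPT. All DAPT libraries were higher than all controls. This 1.33-fold rise was 0.41 ± 0.08 on the log2 scale (standard error; adjusted p = 2.86e-04, edgeR). Exons of *FAM228B* on the opposite strand cover 3.46% of its exonic bases.

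*TP53INP1* (ENSG00000164938), a nuclear protein that promotes p53 activity and takes part in autophagy, was at 17.6, 13.2 and 14.2 CPM in the controls and at 16.8, 18.8 and 17.5 CPM with DAPT. The groups overlapped through control replicate 1, which lay within the DAPT range. Its log2 fold change was 0.23, with a 95% interval from 0.01 to 0.44 (adjusted p = 0.0962, edgeR). Without control replicate 1 it was 0.37 (adjusted p = 0.00596, edgeR), and the part of the fibroblast reads of that library was not tested.

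Levels per kilobase of exon put the 10 genes in an order that differed between the groups. In the controls *SESN3* was highest at 24.1 ± 2.19 CPM per kb (SD, n = 3), above *GADD45B*, *TP53I3*, *GADD45A*, *SESN2*, *SESN1*, *MDM2*, *PPM1D*, *TP53INP1* and *GADD45G* at 1.07 ± 0.405 CPM per kb (SD, n = 3). Neighbours whose ranges overlapped in the controls were *GADD45B* and *TP53I3*, *SESN2* and *SESN1*, *SESN1* and *MDM2*, and *PPM1D* and *TP53INP1*. With DAPT *GADD45A* led at 16.8 ± 1.48 CPM per kb (SD, n = 3), but its range overlapped that of *TP53I3*, which overlapped that of *SESN3*, which overlapped that of *GADD45B*. The length used is that of all annotated exons of a gene together, which is 13283 bases for *MDM2* and understates the level of genes with many alternative exons.

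Promoter windows in the RefSeq table, from 250 bases before to 50 bases after a start, were searched for 8 of the 10 genes. The genes *GADD45A* and *TP53INP1* were not part of this search. The windows were searched on both strands for 4 motifs. The p53 repeat unit (the motif that occurs as a pair in a p53 response element) was matched exactly for 1 of the 8 genes, *SESN1*, beside 6.63% of all 35116 windows. This match is shown with its neighbouring bases at chr6:109009018-109009047 (GRCh38.p14, minus strand), with the matched bases in capitals. It lies 49 bases before a start site of a *SESN1* transcript.
SESN1: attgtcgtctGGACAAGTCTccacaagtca
The composite element of C/EBP and ATF factors (TGATGNAA) was found for *GADD45G* alone, beside 3.62% of all windows, and not in the window of *SESN2*. The FOXO core (GTAAACA) was found for 0 of the 8 genes, beside 3.42% of all windows. The core of the Notch effector RBPJ (TGGGAA) was found for *MDM2* and *SESN1*, beside 24.0% of all windows. The 8 genes had 13 windows together, and these 2 genes had several each. Counts of genes and shares of windows are thus unlike units. A match describes the letters only, and these motifs can lie outside such short windows. An exact search also passes over sites that differ from the motif in any base, so no match does not mean no site.

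The other genes of the p53 pathway held calls in both directions. Of 50 tested p53 targets other than the 10 genes, 17 were higher with DAPT (34.0%, background 17.2%) and 10 lower (20.0%, background 18.0%), with a median log2 fold change of 0.05. Without control replicate 1 these numbers were 17 and 9. The highest-ranked rises were those of *GDF15* (log2 fold change 1.86), a secreted stress cytokine, *CDKN1A* (0.29), which encodes the cell cycle inhibitor p21, *RRM2B* (0.38), a ribonucleotide reductase subunit, and *CPEB4* (0.44), an RNA-binding protein. The highest-ranked decreases were those of *IER5* (-0.65), *SFN* (-0.55), which encodes the 14-3-3σ protein, *ASCC3* (-0.36), a DNA helicase, and *PLK2* (-0.41), a polo-like kinase. *CDKN1A* stood at 166, 180 and 175 CPM in the controls and at 210, 215 and 208 CPM with DAPT. *GDF15* and *ATF3* (log2 fold change 0.68), both among the higher p53 targets, are also members of the list of integrated stress response genes.

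Among the 17 tested genes of the circuit around p53, 5 were higher (29.4%, background 17.2%) and 9 lower (52.9%, background 18.0%). The median log2 fold change of this list was -0.15. *TP63*, a transcription factor of basal squamous epithelium, was at 383, 371 and 379 CPM in the controls and at 258, 252 and 246 CPM with DAPT. *TP63* fell without overlap (log2 fold change -0.58, adjusted p = 2.82e-09, edgeR), as did *TP73* (-0.71), *RPL11* (-0.28) and the checkpoint kinase gene *CHEK1* (-0.41). *RPL11* has processed pseudogenes, and reads that mapped to several places were not counted. *MDM4*, a relative of *MDM2* that inhibits p53, rose by a log2 fold change of 0.32, and *HIPK2* (0.21), *ATM* (0.21) and *TP53BP1* (0.15) rose less. The number of higher genes in this list ran from 1 to 5 over the fits that lacked one library, with 1 without control replicate 2, 2 without control replicate 3 and 3 without DAPT replicate 1 or 2.

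Genes of the integrated stress response, in which ATF4 raises amino acid synthesis and transport, rose almost throughout. Of 36 tested members, 34 were higher with DAPT (94.4%, background 17.2%) and 0 were lower (background 18.0%), with a median log2 fold change of 0.71. In edgeR 0 members were lower at an unadjusted p under 0.05 too, and 0 were lower with DESeq2. Among them were *TRIB3* (log2 fold change 1.81), a pseudokinase induced by ATF4, *SLC7A11* (1.58), the cystine transporter, *PSAT1* (1.07), an enzyme of serine synthesis, and *WARS1* (0.99), a tRNA synthetase. Without control replicate 1, 32 members were higher and 0 lower. This list was written with the rise of several of its genes in these data already known, so the count is no independent evidence of its direction.

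The FOXO list, which bears on *SESN1* and *SESN3*, had 8 of 20 tested genes higher (40%, background 17.2%) and 5 lower (25%, background 18.0%). Its median log2 fold change was 0.11. *TXNIP* (log2 fold change 1.07), an inhibitor of thioredoxin, *CDKN1B* (0.32), *BCL2L11* (0.32) and *CITED2* (0.31) rose, while *TNFSF10* (-1.30), the death ligand TRAIL, *BNIP3* (-0.34), *FBXO32* (-0.23) and *FOXO1* itself (-0.29) fell. In the list of NF-κB feedback genes, which bears on *GADD45B*, 4 of 8 rose (50%, background 17.2%) and 1 fell (12.5%, background 18.0%). They were *BIRC3* (0.33), *RELB* (0.46), *NFKB2* (0.17) and *NFKBIA* (0.15), against *TNFAIP3* (-0.26), and 2 rose without control replicate 1 and 2 without DAPT replicate 2.

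Of 25 tested genes for partners of the GADD45 and sestrin proteins, 6 were higher (24%, background 17.2%) and 5 lower (20%, background 18.0%). Their median log2 fold change was 0.02. The 4 highest-ranked decreases were of genes for binding partners of GADD45 proteins. *PCNA* had a log2 fold change of -0.61, *CDK1* of -0.47, *CCNB1* of -0.41 and *MAP3K4* of -0.36. The 4 highest-ranked rises were those of *SQSTM1* (0.45), an autophagy receptor, *MIOS* (0.30), a GATOR2 subunit, *ULK1* (0.25), a kinase that starts autophagy, and *MTOR* (0.18). *RRAGA* (-0.26), a Rag GTPase upstream of mTORC1, fell, and 14 of the 25 partner genes were not called. The number of higher partners was 3 with DESeq2 and 3 without control replicate 3.

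**Figure D4:**
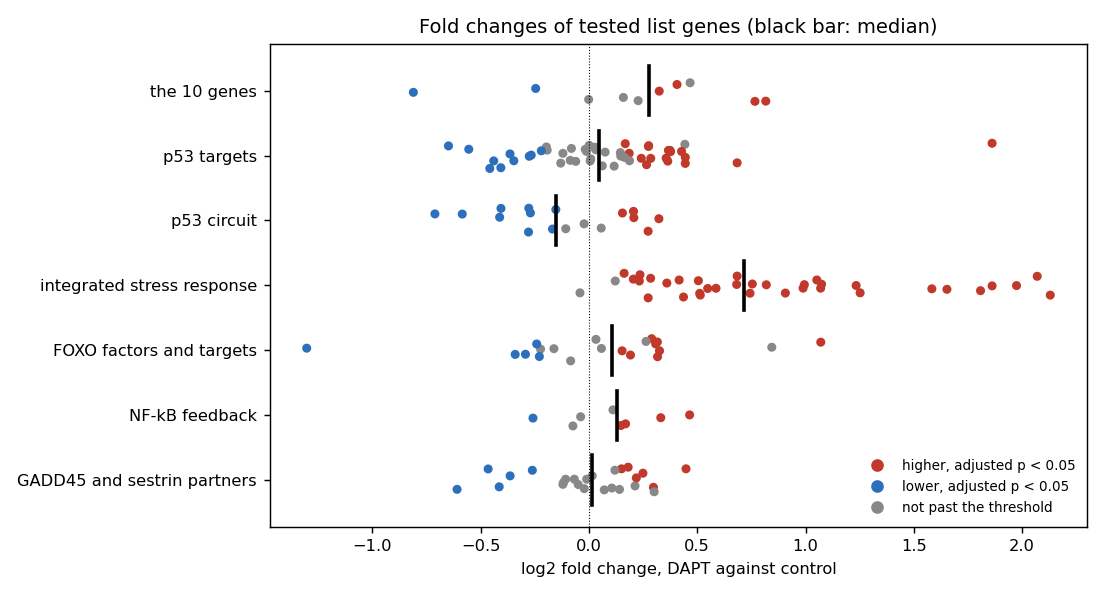
Log2 fold changes with DAPT of the 10 genes and of the tested members of 6 related lists (points, coloured by the edgeR call at an adjusted p-value under 0.05), with the median of each list as a black bar. The integrated stress response list lies almost wholly to the right of 0 with a median of 0.71, while the p53 target list spreads to both sides with a median of 0.05.

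The expression patterns most like those of 3 of the genes were found by Pearson's r of log2 CPM over the 6 libraries, among 14198 genes with a mean of at least 1 CPM. For *GADD45A* they were *OS9*, *EMC3* and *BLTP1*, with r of 0.999, 0.998 and 0.998. For *MDM2* they were *CHD1*, *SRP14-DT* and *C11orf58*, with r of 0.999, 0.999 and 0.998, and for *SESN2* they were *LARP6*, *HERPUD1* and *CEBPG*, with r of 0.998, 0.997 and 0.996. These r values were computed across both groups, and 1463, 823 and 1248 genes had r above 0.9 with *GADD45A*, *MDM2* and *SESN2*.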

How the data were processed

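Libraries of mRNA from HSC-4 cells were sequenced by the authors, who trimmed the single-end reads, mapped them to GRCh38 with HISAT2 and, per the file headers, counted reads on the exons and strand of each Ensembl gene (annotation release 96) with featureCounts 1.6.3. The deposited values are raw read counts without normalization. Symbols were matched for 58472 of 58884 gene identifiers. Groups were compared in R 4.3.3 by the quasi-likelihood test of edgeR 4.0.16, fitted robustly on TMM-scaled libraries. Genes with low counts were first removed by its group-wise filter at 10 counts, and p-values of the remaining 15001 genes were adjusted by Benjamini-Hochberg and called at an adjusted p under 0.05. CPM are TMM-normalized, and standard errors derive from the test statistic. Intervals and floors cover counting error only where they come from counts alone.

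Alternatives were DESeq2 1.42.0, limma-voom (limma 3.58.1), other tests, scalings, filters and thresholds, a replicate block and each library left out. An offset for GC content and length was added after the data were seen. The 10 genes, the lists (written from general knowledge) and the tests were chosen with earlier results of these data known. Named were the 10 genes, 4 Notch targets, *TP63*, *MDM4*, *CDKN1A*, the 4 calls with the smallest adjusted p per list and direction, and the 3 most similar genes for *GADD45A*, *MDM2* and *SESN2*. *SOD2*, *PDK4*, *PCK1* and *G6PC1* of the FOXO list were not tested. A gene that this rule also names is not reported here.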

Additional observations from a re-analysis of the deposited data

How the results depend on the processing

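*GADD45A*, *SESN2*, *SESN3*, *MDM2* and *TP53I3* kept their direction and call in all 19 alternatives each, with log2 fold changes from 0.70 to 0.86, 0.76 to 0.90, -0.87 to -0.73, 0.24 to 0.42 and 0.36 to 0.49. *SESN1* was called in 8 of 19 and lost its call at -0.25 with DESeq2, -0.26 with limma-voom, -0.24 with the likelihood ratio test, -0.25 with a fit that is not robust, -0.20 with library size alone and -0.25 at an adjusted p under 0.01. With a library left out it ranged from -0.35 to -0.16. In each of the losing settings 1 gene was called lower in place of 2. *GADD45B* passed at 0.26 after correction for gene GC and length, a setting chosen after seeing the data, and at 0.26 when the replicate block was added to it, and ranged from 0.10 to 0.26 with a library left out. *TP53INP1* passed at 0.27 with library size alone and ranged from 0.14 to 0.37 with a library left out. *PPM1D*, at -0.00120, changed sign to 0.0453 with library size alone and ranged from -0.0275 to 0.0485 with a library left out. At an adjusted p under 0.01, 2 genes around p53, 2 NF-κB feedback genes and 3 partner genes were higher, and DESeq2 gave 3 partner genes. With a library left out the ranges were 1 to 5, 2 to 4 and 3 to 8 higher genes, and 1 to 2 of the 10 genes were lower. With the replicate block *SESN1* was at -0.25 (adjusted p = 0.0665, edgeR), with 1 gene lower, and the block changed no other call of the 10 genes. Between same-numbered libraries, the correlations of the deviations from the group means were 0.0173, 0.0252 and 0.00382. These values cannot show whether such libraries were prepared together, and the labels do not say. The cause of these changes was not tested. *GADD45G*, with 15 to 30 reads per library, passed in none of the 19 alternatives and ranged from 0.24 to 0.81.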
